A study of Sus scrofa with 8 samples.

Results

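NQO1 and a set of antioxidant enzymes were followed in the testes of 8 Large White boars, to ask whether the other enzymes had the same diet difference as NQO1. The genes asked for were NQO1, SOD1, SOD2, CAT, GPX1, GPX4, GPX5, PRDX6, TXN and GSTO1. A probe was taken as a member when its accession on the array belonged to 1 of these 10 genes in the pig RefSeq gene table, or when the study's supplementary gene table named it so. This gave 11 probes of 8 genes among 43603 probes. No probe was matched to SOD1 or SOD2, which were not analysed here. Of the 11 probes, 10 probes of 7 genes passed the filter on dim signals, and 9 of these, of 6 genes, were not NQO1. NQO1 was picked for its diet difference in these boars, so its difference is given as a description without a test.

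Of the boars, 4 received a standard diet, the control diet, and the other 4 received the same diet with added methionine, choline, betaine, vitamin B6, vitamin B12 and folate, the supplemented diet. The diets were fed from 1 to 10 months of age and the boars were then slaughtered. Total RNA of testis was labelled with Cy3 and hybridized to 1 Agilent porcine array for each boar. The boars m_9597 and m_9599 (supplemented) and m_9598 and m_9600 (control) were full brothers of 1 litter and shared 1 slide. By the study's methods the boars came from 3 litters and were allotted to the diets at random within litter. The boars m_9499 and m_9527 (supplemented) and m_9502 and m_9528 (control) shared the other slide. Which of the other litters each belonged to is not given in the sources used here, and the litter of brothers and its slide cannot be told apart. The arrays of the supplemented boars were at places 1 and 3 of each slide and those of the control boars at places 2 and 4, which leaves array place and diet inseparable.

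NQO1 is a cytosolic flavoenzyme that reduces quinones to hydroquinones and so keeps them from redox cycling. Its gene is a classic target of the transcription factor NRF2, encoded by NFE2L2, which KEAP1 and CUL3 hold at a low level in unstressed cells. Catalase, glutathione peroxidases and peroxiredoxins remove peroxides, thioredoxin passes electrons to peroxiredoxins, and glutathione transferases and glutathione itself complete the system, for which methionine is a source of cysteine. In testis GPX4 is both an enzyme and a structural protein of the sperm midpiece.

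The probe sequences are shown for NQO1 and for those probes of the wider redox lists, SELENOP, DUOX2, EPHX1 and TXNIP, that had a limma P-value under 0.05 and a sequence in the files used, since each value below is the signal of 1 such 60-base oligonucleotide and not of a whole transcript. The capitals mark the 53 bases that the SELENOP probes share, so that these 2 probes read nearly the same piece of the transcript.
NQO1 A_72_P127796: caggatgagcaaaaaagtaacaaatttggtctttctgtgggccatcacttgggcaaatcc
SELENOP A_72_P027691: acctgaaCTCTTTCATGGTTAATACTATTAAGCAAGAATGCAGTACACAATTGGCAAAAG
SELENOP A_72_P257027: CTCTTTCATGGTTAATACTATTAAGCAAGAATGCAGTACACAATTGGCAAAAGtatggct
DUOX2 A_72_P232907: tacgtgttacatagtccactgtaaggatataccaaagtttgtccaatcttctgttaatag
EPHX1 A_72_P128226: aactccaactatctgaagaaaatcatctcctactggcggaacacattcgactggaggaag
TXNIP A_72_P391733: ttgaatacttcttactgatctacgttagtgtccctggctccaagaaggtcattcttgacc
The place of these probes in the genome and in the transcripts was not determined here, because the genome build behind the array was not given in the sources used.

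Few probes differed between the diets over the whole array. Of 36982 present probes, 689 (1.86%) had a limma P-value under 0.05, with 342 lower and 347 higher on the supplemented diet, and none had an adjusted p under 0.05 (smallest 0.476). The count of 689 rested on single boars, with 339 without m_9528 and 6155 without m_9502. With background-subtracted signals the split was 759 lower and 260 higher. The median log2 difference over all present probes was -0.00 and the median absolute difference 0.17. The share of spots well above background was 76.3 to 79.6% on the supplemented and 77.3 to 86.5% on the control arrays, and its part in the differences was not tested. Markers of Leydig cells (14 probes of 8 genes), Sertoli cells (10 of 7), spermatids (5 of 5) and other cell types were measured. Coverage was thin for spermatogonia (3 of 2), peritubular cells (4 of 2), endothelium (4 of 2) and spermatocytes (1 of 1), and red blood cells had no probe. The mean level of every list with a present probe overlapped between the diets. Of the 14 Leydig cell probes 13 had a lower mean on the supplemented diet, against 50.5% of all present probes. Several of the 14 are probes of the same gene, and RLN2 (relaxin) among them was picked on this contrast.

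NQO1 had a lower signal in each supplemented boar than in any control boar. Its log2 signal was 9.97 in m_9597, 9.48 in m_9599, 10.30 in m_9499 and 9.37 in m_9527 on the supplemented diet. On the control diet it was 11.70 in m_9598, 11.01 in m_9600, 11.64 in m_9502 and 11.16 in m_9528. The highest supplemented boar, m_9499, and the lowest control boar, m_9600, were 0.71 apart on the log2 scale (1.63-fold). The mean was 9.78 ± 0.43 (SD, n = 4) in supplemented boars against 11.38 ± 0.34 (SD, n = 4) in control boars, a difference of -1.60 (SE 0.25), which is a 3.02-fold lower signal. Only 11 of the 36982 present probes had a larger fall in signal, and 12 probes (0.0324%) were at least 3-fold lower, NQO1 included.

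The NQO1 difference was about the same on both slides. It was -1.63 between the brothers and -1.57 between the other boars, and the interaction of diet and slide was 0.06 (SE 0.56, limma adjusted p = 1.0). NQO1 was picked for its diet difference over all boars, which favours probes with a small spread within the diets. The likeness of the slides is therefore no independent evidence, and with this SE it does not show that the slides are equal. The raw median signal of the spot was 460.5 to 1396.5 on the supplemented and 1982.5 to 4723.5 on the control arrays, over a local background of 19 to 30.5, so that the probe was bright in all boars. In whole testis, fewer cells that contain a transcript and less transcript in each cell cannot be told apart.

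**Figure D1:**
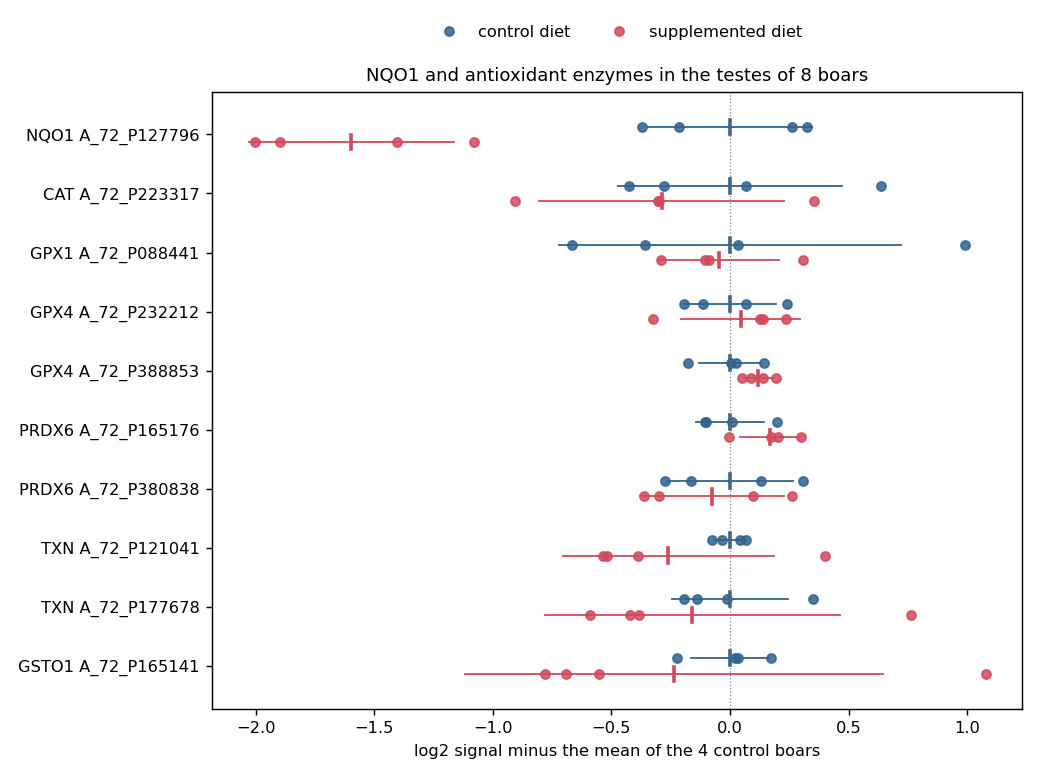
Log2 signal of each present member probe in each boar, with the mean of the 4 control boars set to 0 (x axis, log2 scale), for the control diet (blue) and the supplemented diet (red). Points are boars, short vertical bars are diet means and horizontal lines are 1 SD. The diets are separate for NQO1, with a gap of 0.71, and overlap for the 9 other probes, where m_9499 is the point far to the right for TXN and GSTO1.

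Among the other antioxidant enzymes no probe passed the test. Of the 9 other present probes, 6 had a lower mean on the supplemented diet, against 50.5% of all present probes, and 3 had a higher mean. None had a limma P-value under 0.05, against 1.86% of all present probes (0.925% lower and 0.938% higher on the supplemented diet). The diets were separate for none of the 9, against 1.13% of all present probes (0.635% lower and 0.495% higher). Their median difference was -0.08, the limma P-values ran from 0.252 to 0.892 and the adjusted p from 0.840 to 0.975. Of their 95% intervals the lowest bound was -1.08 for GSTO1 and the highest 0.69 for GPX1, so that a difference of up to 2.11-fold lower or 1.61-fold higher is within these intervals, and the values do not show that the diets act alike on these genes.

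Catalase (CAT), the peroxisomal enzyme that splits hydrogen peroxide, differed by less than the spread between boars. The CAT log2 signal was 13.47, 13.47, 14.12 and 12.86 in m_9597, m_9599, m_9499 and m_9527, and 13.84, 13.49, 13.34 and 14.41 in m_9598, m_9600, m_9502 and m_9528. Both the lowest and the highest boar were on the slide without the brothers, m_9527 on the supplemented and m_9528 on the control diet. The difference was -0.29 (interval -0.97 to 0.39, limma adjusted p = 0.842).

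The glutathione peroxidases had no common direction. GPX1, the cytosolic selenoenzyme, was 11.83, 12.03, 12.02 and 12.43 in m_9597, m_9599, m_9499 and m_9527, and 11.46, 13.11, 12.16 and 11.76 in m_9598, m_9600, m_9502 and m_9528. The control boars of GPX1 spanned all supplemented boars, with m_9600 the highest, and the difference was -0.05 (interval -0.78 to 0.69). GPX4, which reduces lipid hydroperoxides, had 2 probes. The GPX4 probe A_72_P388853 lay between 18.43 and 18.57 on the supplemented and between 18.21 and 18.53 on the control diet (difference 0.12, limma adjusted p = 0.845). The GPX4 probe A_72_P232212 lay between 16.69 and 17.25 and between 16.82 and 17.26 (difference 0.04, limma adjusted p = 0.953). For the latter the difference was 0.34 between the brothers and -0.25 between the other boars, and this interaction had the lowest P-value among the member probes, 0.0998 in limma, above the threshold of 0.05. GPX5, a secreted peroxidase of the epididymis, was well above background in m_9598 only and was not tested. Its raw median signal was 29 to 38 on the supplemented and 31 to 50 on the control arrays.

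PRDX6, a peroxiredoxin that uses glutathione, also had 2 probes and they had opposite signs. The PRDX6 probe A_72_P165176 was 13.66, 13.57, 13.36 and 13.54 in m_9597, m_9599, m_9499 and m_9527, and 13.26, 13.56, 13.37 and 13.26 in m_9598, m_9600, m_9502 and m_9528 (difference 0.17, limma adjusted p = 0.840). The PRDX6 probe A_72_P380838 lay between 11.74 and 12.36 on the supplemented and between 11.83 and 12.41 on the control diet (difference -0.08, limma adjusted p = 0.924). The diets overlapped on both probes.

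GSTO1, the omega glutathione transferase with thioltransferase activity, and TXN, thioredoxin, shared a pattern in which 1 supplemented boar stood apart. GSTO1 was 12.62 in m_9597, 12.48 in m_9599 and 12.39 in m_9527, all below the control range of 12.95 to 13.34, and 14.25 in m_9499, above it. The TXN probe A_72_P121041 was 11.32, 11.46 and 11.33 in m_9597, m_9599 and m_9527, below the control range of 11.78 to 11.92, and 12.25 in m_9499. The TXN probe A_72_P177678 was 11.65, 11.61 and 11.45 in m_9597, m_9599 and m_9527, below the control range of 11.84 to 12.38, and 12.80 in m_9499. On all 3 probes, then, m_9499 was the highest of the 8 boars and the other supplemented boars were the lowest.

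With all boars the GSTO1 difference was -0.24 (interval -1.08 to 0.60, limma adjusted p = 0.877), and those of TXN were -0.26 (limma adjusted p = 0.840) and -0.16 (limma adjusted p = 0.892). Without m_9499 these 3 probes had P-values under 0.05, with differences of -0.67 for GSTO1 and -0.48 and -0.47 for TXN, each with a limma adjusted p of 0.888, in a setting where 2.03% of all present probes had a P-value under 0.05. In the litter of brothers alone GSTO1 and the TXN probe A_72_P121041 had P-values under 0.05, with limma adjusted p of 0.626 and 0.764, where 6.44% of all present probes did. Between the brothers the GSTO1 difference was -0.72, and between the other boars, m_9499 included, it was 0.24. The deposited labels give no ground to leave m_9499 out.

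Some markers of Leydig cells, the steroid-producing cells between the tubules, were high in the same boar. In m_9499 the probes of STAR, CYP11A1, CYP17A1 and LHCGR were the highest of all boars. The probes of HSD3B1 (7.41 and 5.55), the CYP19A1 probe A_72_P232317 (5.38) and RLN2 (8.23) were below their means over all boars there. The mean of the 14 Leydig cell probes, relative to its mean over all boars, was -0.27, -0.38, 0.65 and -0.89 in m_9597, m_9599, m_9499 and m_9527. In m_9598, m_9600, m_9502 and m_9528 it was 0.22, 0.18, 0.03 and 0.45. The difference between the diet means of the list was -0.44, and RLN2, relaxin, which was picked on this contrast, had -2.90 with separate diets. Without RLN2 the supplemented range was -0.80 to 0.79 and the control range -0.07 to 0.27. On Sertoli cell markers m_9499 was at -0.22, below the other supplemented boars (0.07 to 0.09) and within the control range of -0.25 to 0.11. The part of the cell types in the GSTO1, TXN and NQO1 values was not tested. For NQO1, m_9499 was the highest supplemented boar but below every control boar.

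**Figure D2:**
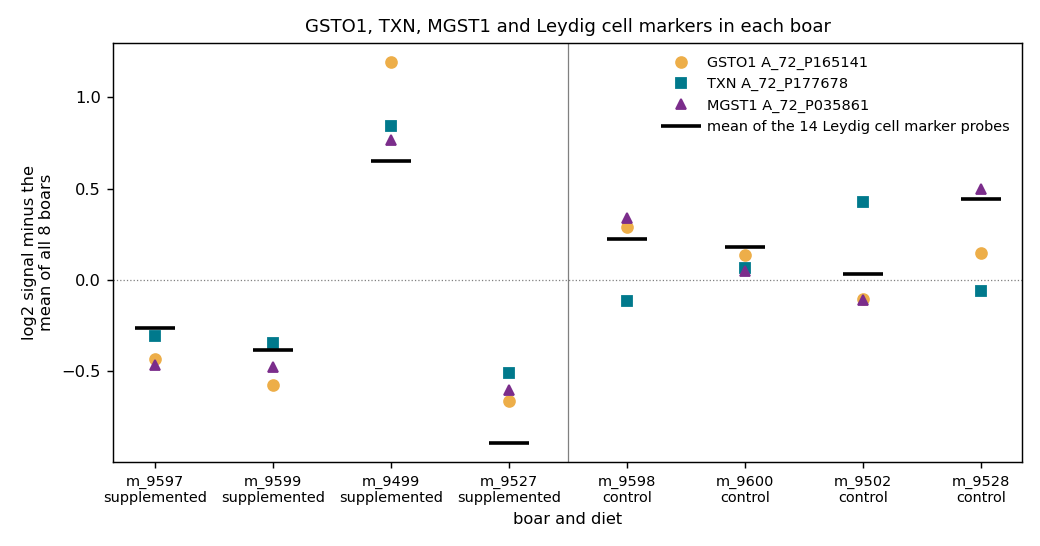
Log2 signal of GSTO1, 1 TXN probe and MGST1 in each boar (x axis), relative to the mean over all 8 boars (y axis, log2 scale), with the mean of the 14 Leydig cell marker probes as black bars. Left of the line are the supplemented boars, right of it the control boars. The highest points and the highest bar (0.65) are those of m_9499, while the other supplemented boars lie below 0.

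Within the diets, the NQO1 signal was compared with the other members through the deviation of each boar from its diet mean. Over the 8 boars Pearson's r with NQO1 was 0.68 and 0.56 for the TXN probes, 0.65 for GSTO1, 0.40 for CAT and 0.25 and 0.39 for the GPX4 probes. It was 0.01 and -0.50 for PRDX6 and -0.56 for GPX1. These 8 points share slides and litters and are given without a test.

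Among 2918 present probes with a gene name (2123 genes), the deviations most like those of NQO1 were those of ABP1 (r = 0.93), LHCGR, the luteinizing hormone receptor of Leydig cells (0.91), NIP7 (0.89), C5 (0.89), MUC19 (0.87) and RPSA (0.87). The ABP1 probe was well above background on 4 of 8 arrays. The least like were OSR2 (-0.99), CDH17 (-0.98) and LRP4 (-0.96). The probes of ABP1, OSR2 and LRP4 were named only by the study's gene table and so were picked on the diet contrast. With Spearman's rank correlation 4 of the 6 most like genes were among the first 6 again. These genes are the extremes of 2918 probes over 8 boars, where high values of r can arise by chance, and none was tested.

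The wider redox genes were looked at in 8 lists of 127 genes, of which 37 genes had a probe named by its RefSeq accession. Of 64 present probes 40 had a lower and 24 a higher mean on the supplemented diet, where 50.5% of all present probes had a lower mean. The probes of SOD3, GPX2 and NCF1, counted as lower, were well above background on none of the supplemented arrays. They passed the filter on dim signals through the control diet alone, so that their direction is no evidence. The median difference of the 64 probes was -0.08, or -0.03 over the 54 probes left without the 10 of FTH1 (ferritin heavy chain). A P-value under 0.05 was found for 6 probes of 4 genes, SELENOP, TXNIP, EPHX1 and DUOX2, or 9.38% against 1.86% of all present probes. All 6 were lower on the supplemented diet, where the share over all present probes was 0.925%. None had an adjusted p under 0.05 (adjusted p 0.840 for each). Of these 6 probes, 5 also stand in the study's gene table, which was picked on this contrast, so that they are no independent evidence. Without m_9527 or without m_9528 the count was 3 probes, those of SELENOP and DUOX2 (4.69% against 1.18% and 0.917% of all present probes), and without m_9502 it was 13 (20.3% against 16.6%). The diets were separate, with the supplemented boars lower, for 4 of the 64 probes, the 2 of SELENOP, DUOX2 and 1 of the 10 FTH1 probes (A_72_P223812, difference -0.29), and for none with the supplemented boars higher. Over all present probes the shares were 0.635% lower and 0.495% higher. All 4 probes also stand in the study's gene table, and the SELENOP probes read nearly the same piece of the transcript. Of 6 further probes named only by the study's gene table, and so picked on this contrast, the diets were separate for CUL3, TXNDC8 (-0.15) and SECISBP2 (-0.21).

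**Figure D3:**
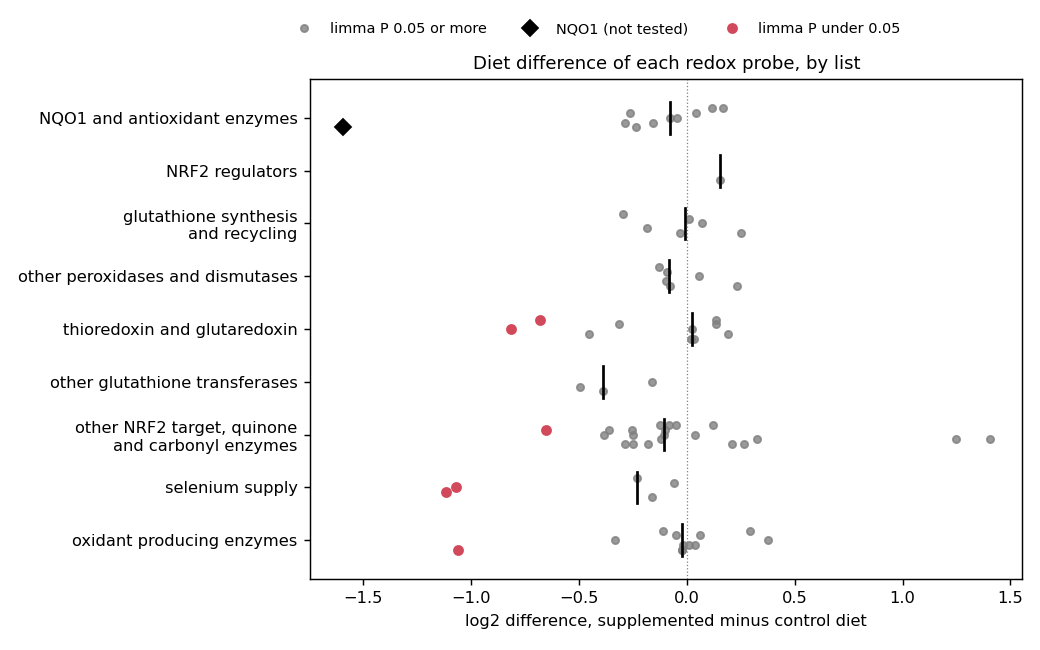
Log2 difference between the diets (x axis, supplemented minus control) of each present probe, for NQO1 and the antioxidant enzymes and for the 8 lists of other redox genes (rows). Red points have a limma P-value under 0.05, the diamond is NQO1, and vertical bars are list medians without NQO1. The 6 red points lie between -1.11 and -0.65, and the list medians lie between -0.39 and 0.15.

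SELENOP, selenoprotein P, which carries selenium from the liver to testis and other organs for the synthesis of selenoenzymes such as GPX4, had the largest of these differences. Its probe A_72_P027691 was 13.22, 13.52, 13.40 and 12.71 in m_9597, m_9599, m_9499 and m_9527, and 14.74, 13.96, 13.60 and 15.01 in m_9598, m_9600, m_9502 and m_9528. The diets were separate, with m_9502 the control boar nearest to the supplemented boars. The difference was -1.11 (SE 0.32, interval -1.84 to -0.39, limma adjusted p = 0.840) for this probe and -1.07 (interval -1.81 to -0.33) for A_72_P257027, which shares 53 bases with it. It was -0.98 between the brothers and -1.25 between the other boars on the former. The other 3 probes of the selenium supply list had P-values above 0.05 and also a lower mean.

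DUOX2, an oxidase that produces hydrogen peroxide, was 7.56, 7.34, 8.23 and 6.81 in m_9597, m_9599, m_9499 and m_9527, and 8.55, 8.35, 8.27 and 9.02 in m_9598, m_9600, m_9502 and m_9528. The diets were separate by a small gap, between m_9499 and m_9502. The difference was -1.06 (SE 0.29, interval -1.72 to -0.40, limma adjusted p = 0.840), with -1.0 between the brothers and -1.13 between the other boars. The other 11 present probes of enzymes that produce oxidants had P-values above 0.05.

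TXNIP, the inhibitor of thioredoxin, had a lower mean on the supplemented diet on both slides, with the larger estimate on the slide without the brothers. The TXNIP probe A_72_P146541 was 11.54 in the supplemented brother m_9599, below both control brothers (11.80 and 12.29), while m_9597 lay between these. In the other boars it was 11.09 and 10.82 on the supplemented against 11.88 and 12.76 on the control diet. The difference was -0.82 (interval -1.48 to -0.15, limma adjusted p = 0.840), with -0.27 between the brothers and -1.36 between the other boars. The TXNIP probe A_72_P391733 had -0.68 (interval -1.24 to -0.12), with -0.21 and -1.15. The limma P-values of the interactions were 0.064 and 0.054, above the threshold of 0.05, so that a difference between the slides was not shown.

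EPHX1, the microsomal epoxide hydrolase and a known NRF2 target, had a difference of -0.65 (SE 0.23, interval -1.18 to -0.12, limma adjusted p = 0.840) on the probe A_72_P128226. Its signal was 9.40, 8.88, 9.75 and 8.94 in m_9597, m_9599, m_9499 and m_9527, and 9.87, 9.58, 9.81 and 10.32 in m_9598, m_9600, m_9502 and m_9528, and m_9499 overlapped with the control boars. The other EPHX1 probe, A_72_P146801, had -0.38 (limma adjusted p = 0.840). The list of other NRF2 target and quinone or carbonyl enzymes was mixed. Of its 21 present probes 14 had a lower and 7 a higher mean, against 50.5% lower over all present probes. The FTH1 probes were all among the lower ones, and HMOX1, with a difference of 0.26 (limma adjusted p = 0.869), was among the higher ones.

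**Figure D4:**
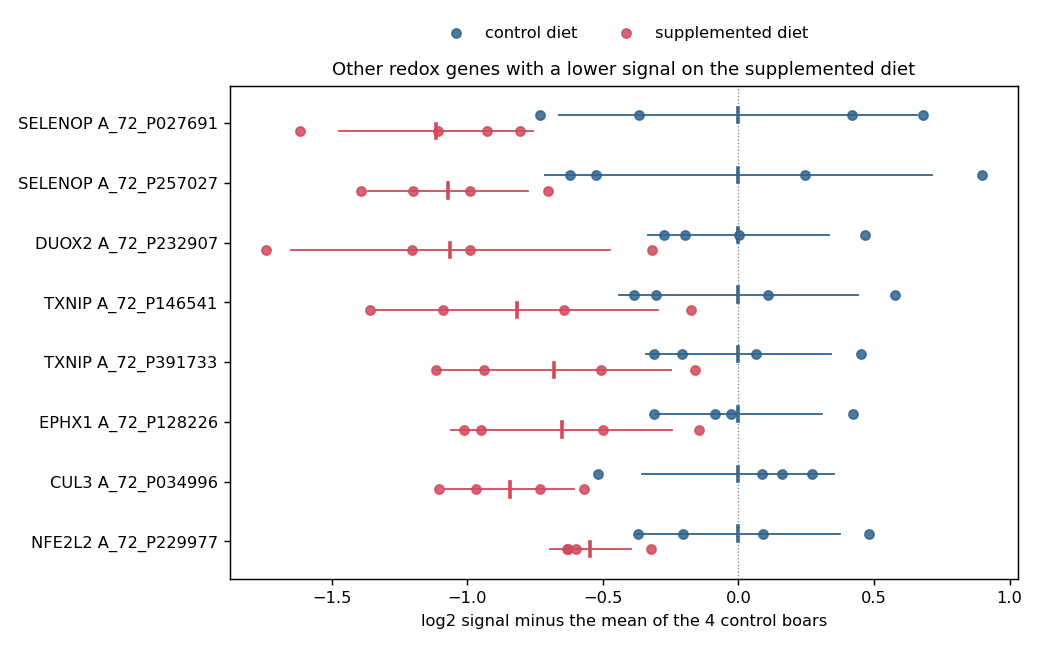
Log2 signal of the SELENOP, DUOX2, TXNIP, EPHX1, CUL3 and NFE2L2 probes in each boar, with the mean of the 4 control boars set to 0 (x axis, log2 scale), drawn as for NQO1 above: points are boars, vertical bars diet means and horizontal lines 1 SD. CUL3 and the NFE2L2 probe were named only by the study's gene table. The diets are separate for SELENOP, DUOX2 and CUL3 and overlap for TXNIP, EPHX1 and NFE2L2.

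The regulators of NRF2 gave no common picture. KEAP1, the adaptor that binds NRF2, was 12.70 to 12.92 on the supplemented and 12.51 to 12.89 on the control diet (difference 0.15, limma adjusted p = 0.840). The probes of NFE2L2 and CUL3 were named only through the study's gene table and so were picked on this contrast. NFE2L2 itself had -0.55 on A_72_P229977 and 0.15 on A_72_P273469, which are opposite signs. The latter probe was dim, at 5.67 to 5.95 over all boars against 8.51 to 9.63 for the former, and differences of dim probes are understated here. CUL3, the scaffold of the ubiquitin ligase that marks NRF2 for degradation, was 8.49 to 9.02 on the supplemented and 9.07 to 9.86 on the control diet (difference -0.84).

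In glutathione synthesis and recycling, with 6 present probes of 4 genes, no probe had a P-value under 0.05. CTH, which makes cysteine from cystathionine in the pathway fed by methionine, was 9.73, 9.71, 9.55 and 8.65 in m_9597, m_9599, m_9499 and m_9527, and 10.34, 9.41, 9.10 and 9.98 in m_9598, m_9600, m_9502 and m_9528. The diets overlapped and the difference was -0.30 (interval -1.02 to 0.43, limma adjusted p = 0.844). GGT1, which breaks down extracellular glutathione, was 7.64 to 7.93 against 7.39 to 7.73 (difference 0.25, limma adjusted p = 0.840).

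Of the glutathione transferases and the other peroxidases and dismutases, no present probe had separate diets. MGST1, the microsomal glutathione transferase, was 14.30, 14.29 and 14.16 in m_9597, m_9599 and m_9527, below the control range of 14.65 to 15.26, and 15.53 in m_9499 (difference -0.39, limma adjusted p = 0.840). GSTA1, an alpha glutathione transferase that is abundant in steroid-producing cells, had -0.49 (limma adjusted p = 0.840), with -0.99 between the brothers and 0.00 between the other boars. All 3 present probes of other glutathione transferases had a lower mean. The 2 probes of GPX6 had opposite signs, 0.23 on A_72_P434319 (limma adjusted p = 0.840) and -0.10 on A_72_P042591 (limma adjusted p = 0.933). SOD3, the extracellular superoxide dismutase, was well above background on none of the supplemented and all 4 control arrays. It thus passed the filter on dim signals through the control diet alone. Its means were 5.28 and 5.41, and the diets overlapped (difference -0.13, interval -0.43 to 0.18, limma adjusted p = 0.842).

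The interaction of diet and slide had a P-value under 0.05 for 738 of the 36982 present probes (2.0%), for none of the member probes (limma P from 0.0998 to 0.826 over the 9 probes other than NQO1) and for 1 of the 64 probes of the wider lists. This was a probe of MSRB1, a selenium-containing methionine sulfoxide reductase, named here after its value was seen. The difference of this probe, A_72_P165206, was -0.37 between the brothers and 0.65 between the other boars (limma adjusted p = 1.0). The other MSRB1 probe, A_72_P037176, had the same sign on both slides, with -0.57 between the brothers and -0.33 between the other boars (limma P of the interaction 0.762).

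The size of the NQO1 difference depended little on the processing. Over 18 other settings it lay between -1.77 (without m_9499) and -1.46 (without m_9527). NQO1 was picked on this contrast and the settings use the same arrays, so that this is no independent evidence for the difference. Among the other members GSTO1 turned its sign in the other 4 boars alone, and GPX1, 1 probe of GPX4 and 1 of PRDX6 turned theirs in 3 or 4 settings each.

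**Figure D5:**
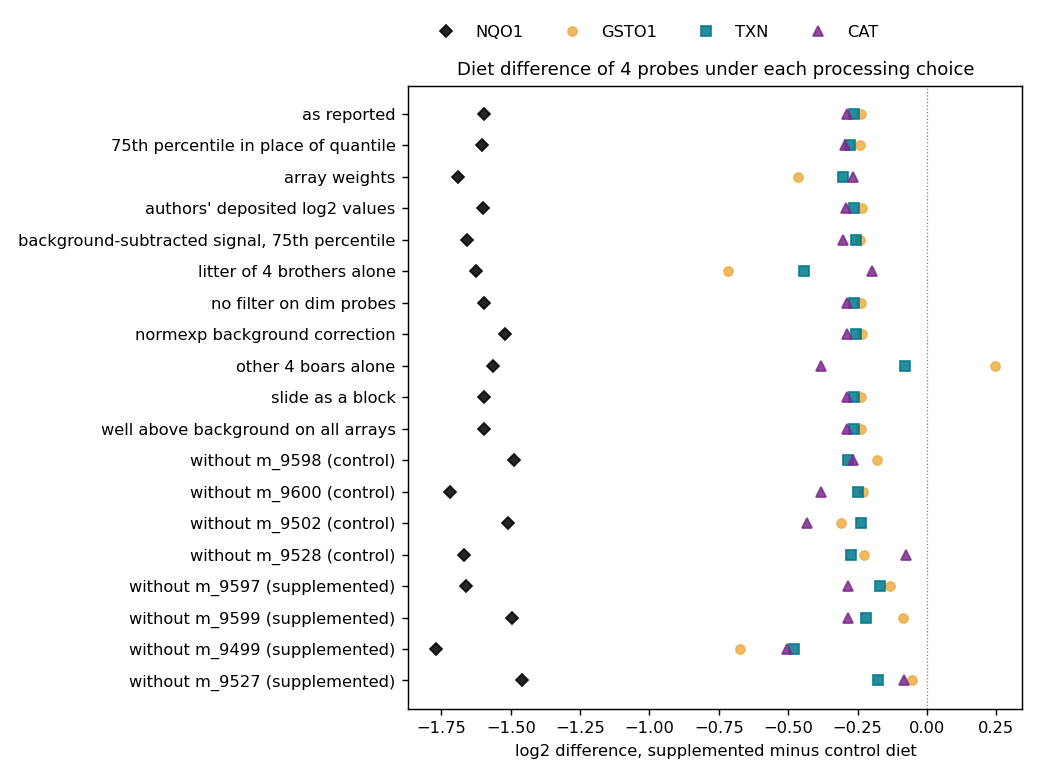
Log2 difference between the diets (x axis, supplemented minus control) of the NQO1, GSTO1, TXN (A_72_P121041) and CAT probes under each processing choice and with each boar left out (rows). NQO1 stays between -1.77 and -1.46. GSTO1 moves from -0.72 in the litter of brothers to 0.24 in the other 4 boars.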

How the data were processed

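The members and the gene lists were chosen with earlier results of these data known. The authors deposited for each array the Feature Extraction output (10.5.1.1) with the intensity of each spot, not normalized between arrays, and a table of log2 values, which equalled quantile-normalized log2 gMedianSignal to within 0.056. From the scanner files, log2 gMedianSignal was quantile-normalized without background subtraction, which understates differences of dim probes, and spots of a probe were averaged. A probe was present with a signal above 25 and the flag gIsWellAboveBG in 50% of its spots on at least 2 arrays of a diet. Two-sided P-values came from limma 3.58.1 (R 4.3.3), the adjusted p is Benjamini-Hochberg's over 36982 probes, and intervals are 95%. The code was tested on simulated data. Of 43603 probes 2628 matched the pig RefSeq table, and 3064 had a name once the 480 probes read from the study's gene table were added. No spot was saturated. Precision is limited by the 8 arrays, and P-values measure the spread between boars.

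Named genes were every member, the probes with P under 0.05 of each list or otherwise the 2 with the largest difference, and the 6 most and 3 least like NQO1. Alternatives were other scaling, background correction and filters, array weights, the slide as block, the deposited log2 values, each slide alone and each boar left out. RNA-Seq of sperm was not used here.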

Additional observations from a re-analysis of the deposited data

Results flagged for a closer look

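Among 66 groups of 4 boars that were looked at (each named probe and marker list in each diet), 8 held a boar far from the other boars of its diet, where chance alone gives about 1 in 20, or 3.3. The groups are not independent, since all come from the same boars and some are probes of the same gene. The count of 8 against 3.3 is therefore no test of an excess. On the supplemented diet, m_9499 was high for GSTO1 (14.25, others 12.39 to 12.62), for MGST1 (15.53, others 14.16 to 14.30) and for both probes of TXN (12.80, others 11.45 to 11.65, and 12.25, others 11.32 to 11.46), and low on the Sertoli cell markers (-0.22, others 0.07 to 0.09). On the same diet, m_9527 was low for CTH (8.65, others 9.55 to 9.73) and high for the NFE2L2 probe A_72_P229977 (8.83, others 8.51 to 8.55). On the control diet, m_9600 was high on the macrophage markers (0.69, others -0.50 to -0.37). NQO1 itself had no boar far from the others of its diet.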

How the results depend on the processing

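NQO1 had a lower signal in all 18 alternatives. Its diets were separate in these same arrays, so that leaving out a boar or taking 1 slide alone could not turn its sign. In each alternative 5 or 6 of the 9 other member probes had a lower mean. No member probe had an interaction with an adjusted p under 0.05 in the 4 alternatives where it was refitted, 75th percentile scaling, array weights, background-subtracted signals and normexp. The count of all probes with a limma P-value under 0.05 moved from 689 to 5830 with array weights, 2381 in the litter of 4 brothers alone and 359 on the other slide. Leaving out single boars gave 339 (without m_9528) up to 6155 (without m_9502), with 369 without m_9598, 438 without m_9527 and 1213 without m_9600. The count with an adjusted p under 0.05 moved from 0 to 1 with array weights and to 3 in the litter of brothers alone, and leaving out single boars gave 0 or 1 (1 without m_9502). The 6 probes of the wider lists with a P-value under 0.05 became 13 with array weights (20.3% against 15.8% of all probes) and 2 on the other slide (3.12% against 0.971%), and leaving out single boars gave 3 (without m_9527 or m_9528, 4.69% against 1.18% and 0.917%) up to 13 (without m_9502, 20.3% against 16.6%). In the litter of brothers alone they were 9 (14.1% against 6.44%). The causes were not tested. The replicate numbers follow the accession order and pair no boars, while the slide as a block gave 726 probes with a P-value under 0.05 and changed no call of the named probes. The number of boars and the dimness of SOD3 and GPX5 limit what could be detected.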

Other observations

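Of the NRF2 target list, 2 probes of AKR1C1, an aldo-keto reductase of steroids and carbonyls, were among the most variable probes of the array. They were chosen after their values were seen. Both had a higher mean on the supplemented diet, with diets that overlapped. The difference was 1.41 (interval -2.35 to 5.16, limma adjusted p = 0.851) for A_72_P076786. It was 1.25 (interval -2.03 to 4.53, limma adjusted p = 0.850) for A_72_P077461. AKR1C1 A_72_P076786 was 6.02, 6.02, 12.72 and 10.20 in m_9597, m_9599, m_9499 and m_9527, and 6.65, 5.26, 11.13 and 6.29 in m_9598, m_9600, m_9502 and m_9528. Its range of 7.46 on the log2 scale (176-fold) was the rank 7 of 36982 present probes. AKR1C1 A_72_P077461 had a range of 6.40 (84.7-fold, rank 13), with 15.29, 13.43 and 14.02 in m_9499, m_9527 and m_9502 and 8.89 to 10.02 in the other boars. The high boars were on the slide without the brothers and belonged to both diets. Another probe of the gene, A_72_P223422, with another accession, had a range of 1.34 only.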
